A study of Mus musculus with 4 samples.

Results

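The alpha subunits of voltage-gated potassium channels are the 40 genes, of 45180 in the deposited tables, whose symbol is Kcn followed by one of the letters a, b, c, d, f, g, h, q, s or v and a number. They were chosen by name alone, and they account for 126 of 128603 transcripts. RNA was measured in the brains of 4 groups of wild-type mice: the inbred strain C57BL/6 (B6), the inbred strain CAST/EiJ (CAST), which derives from wild castaneus mice, and the hybrids of both crosses. The hybrid group F1i is labelled C57BL/6 x CAST/EiJ, and the group F1r is labelled CAST/EiJ x C57BL/6. Which parent was the dam, and how old and of which sex the mice were, is not given in the sources used here. Each group was 1 library made from left-hemisphere RNA pooled over 5 mice, although the design text of the series speaks of whole brain, so no value here has a replicate, an error or a test.

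These subunits assemble as tetramers around a potassium-selective pore that opens when the membrane depolarises. In neurons they repolarise the action potential, set the firing rate and restrain excitability in axons and dendrites. Kcna, Kcnb, Kcnc and Kcnd genes encode the Kv1 to Kv4 subunits that form channels by themselves, Kcnq genes encode the Kv7 subunits of the slow M-type current, and Kcnh genes encode the ether-a-go-go, erg and elk channels. Kcnf1, Kcng, Kcns and Kcnv genes encode electrically silent subunits (Kv5, Kv6, Kv9 and Kv8) that make no current alone and modify channels formed with Kcnb subunits.

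What the 40 genes share is the selectivity filter, the stretch of the pore that strips water from potassium ions. In the GENCODE M21 coding sequences (build GRCm38), a run of 5 codons for this filter was found once in each of the 40 genes. The runs below are shown because the filter is common to all members and its codons differ between groups of them. Each is written 5′ to 3′ on the coding strand, and the capitals mark the 5 filter codons.
Kcna1: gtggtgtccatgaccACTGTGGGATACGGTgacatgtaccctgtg
Kcnb2: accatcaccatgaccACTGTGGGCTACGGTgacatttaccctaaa
Kcng4: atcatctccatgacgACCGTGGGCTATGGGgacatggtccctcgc
Kcns1: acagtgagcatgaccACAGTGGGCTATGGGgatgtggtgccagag
Kcnc1: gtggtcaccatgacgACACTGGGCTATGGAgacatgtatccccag
Kcnd2: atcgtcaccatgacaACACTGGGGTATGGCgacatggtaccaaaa
Kcnh1: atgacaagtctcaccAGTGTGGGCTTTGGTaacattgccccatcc
Kcnh5: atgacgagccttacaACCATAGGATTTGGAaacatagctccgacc
The filter codons began with threonine, valine and carried a tyrosine in 20 members, namely all Kcna and Kcnb genes and all silent subunits, Kcng4 and Kcns1 included. Threonine, leucine and tyrosine marked the 7 Kcnc and Kcnd genes. The Kcnh genes carried phenylalanine in place of the tyrosine. Of these, 7 began with serine and valine, whereas Kcnh5, an ether-a-go-go subunit, began with threonine and isoleucine. Encoded proteins ran from 433 residues for Kcng3 to 1195 for Kcnh7.

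Values are FPKM, fragments scaled by transcript length and by the mapped fragments of the library, summed over the transcripts of a gene of at least 200 bases. FPKM is scaled by length, so levels can be set side by side between genes. The 40 members summed to 441 FPKM for B6, 474 for CAST, 467 for F1i and 508 for F1r. Of the 40, 21 had a mean of at least 10 FPKM over the 4 libraries, and 34 had a mean of at least 1 and entered the comparisons. The 6 below it were Kcna7, Kcna10, Kcnh6, Kcnh8, Kcnq1 and Kcnv2. Across the 40 genes the order of levels was nearly the same in each library, with a Spearman correlation of 0.96 between B6 and CAST and 0.996 between F1i and F1r. These are correlations across genes of libraries that share a tissue and a protocol, and genes are not replicates.

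**Figure D1:**
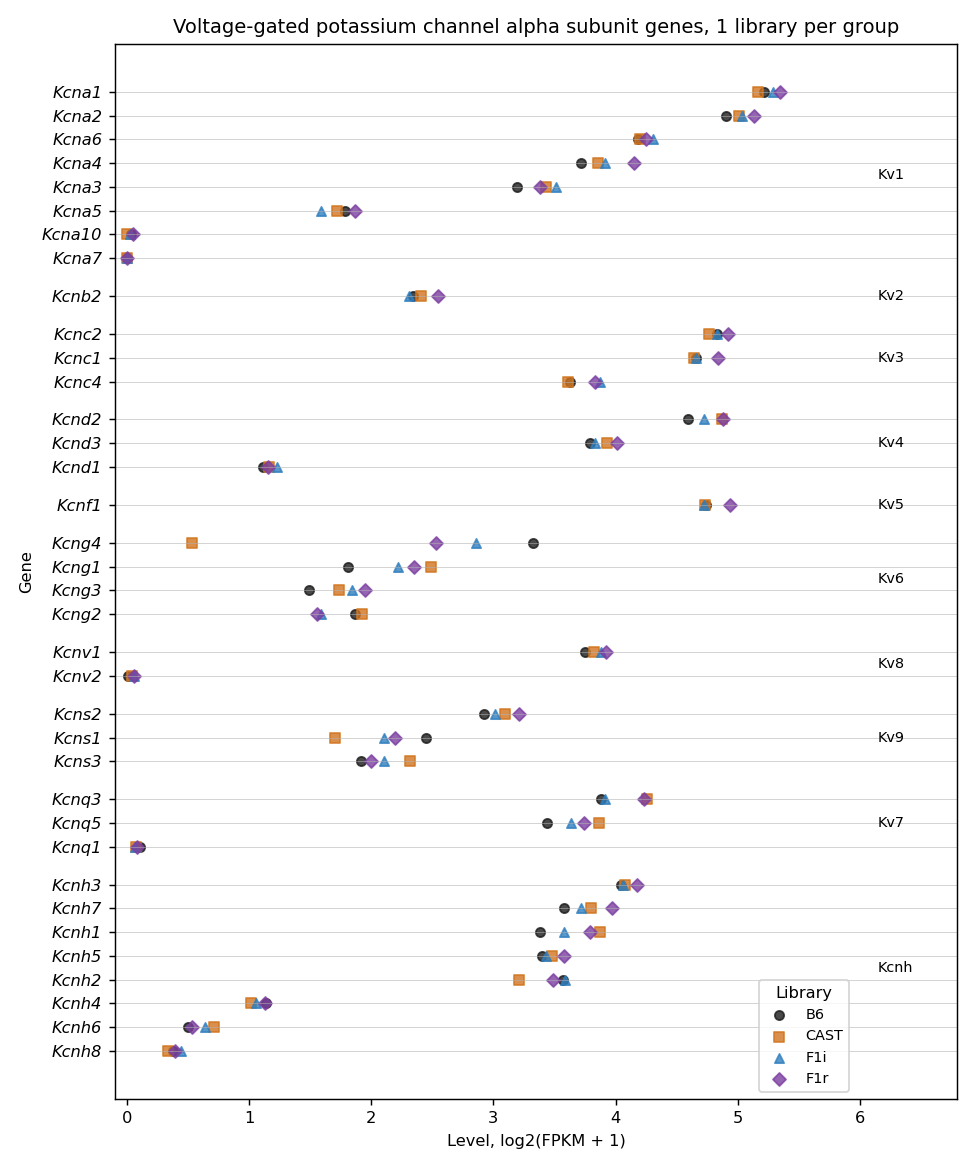
Level in log2(FPKM + 1) of 36 of the 40 genes, ordered by subfamily, with 1 point for each of the B6, CAST, F1i and F1r libraries. For most genes the 4 points lie close together, and Kcng4 stands apart with CAST at 0.445 FPKM and the other libraries between 4.78 and 9.002.

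Differences between libraries are given as log2(FPKM + 1), a scale that understates the change of low genes, and a gene was called when it was at least 2-fold apart. Between CAST and B6, 1 of the 34 compared members was called lower (Kcng4) and 0 were called higher. Over all 13746 genes compared, 5.09% were called, so 1 member in 34 was no more than the background. Of the 34, 31 had parental FPKM within 1.5-fold of each other, and the exceptions were Kcng4, Kcns1 and Kcng1, all silent subunits. The median difference of CAST minus B6 was 0.07 over the members and 0.04 over all genes. The median size of the difference, in either direction, was 0.14 over the members and 0.20 over all genes.

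**Figure D2:**
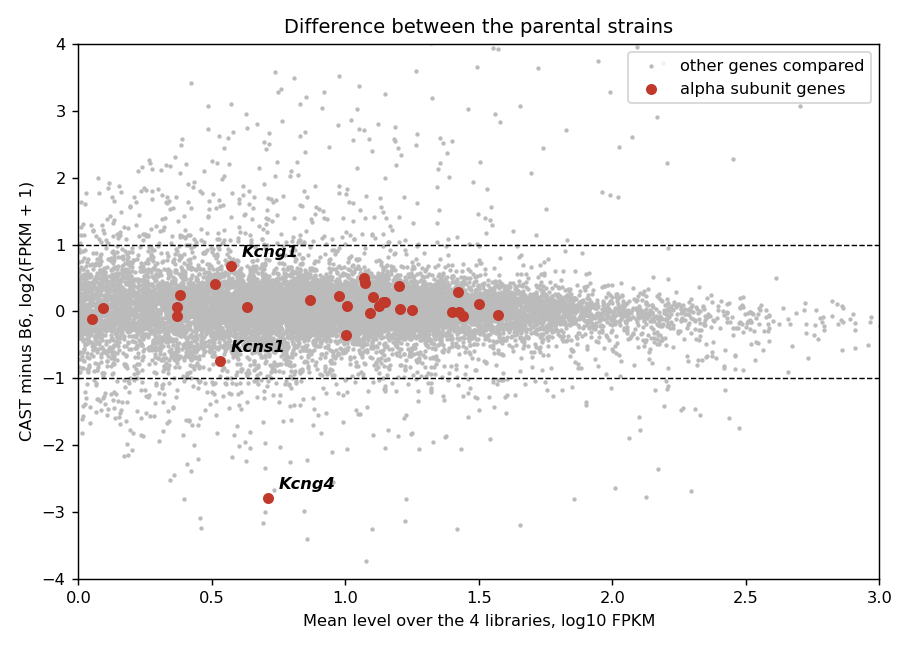
Difference of CAST minus B6 in log2(FPKM + 1) against the mean level in log10 FPKM, with other compared genes in grey, 30 of the 34 compared members in red and dashed lines at 2-fold; 51 genes lie outside the axes. Kcng4 is the only member beyond a dashed line, at -2.79.

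Kcng4 encodes a silent subunit of the Kv6 group that alters the gating of Kcnb channels and is known from fast motor neurons. The gene (ENSMUSG00000045246) lies on the minus strand of chromosome 8, from 119623854 to 119635680 in GRCm38. It was at 9.002 FPKM for B6, 0.445 for CAST, 6.25 for F1i and 4.78 for F1r. CAST was below all 3 other libraries, and both hybrids lay between the parents. B6 was 20.2-fold above CAST on FPKM, a difference of CAST minus B6 of -2.79 on the log2 scale. On FPKM, with B6 set at 0 and CAST at 1, F1i sat at 0.322 and F1r at 0.493.

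The low value rested on few fragments but not on none. From the step that 1 fragment makes in long transcripts, the Kcng4 FPKM corresponded to an estimated 1449.9 fragments for B6, 51.9 for CAST, 824 for F1i and 566 for F1r. A single transcript of 3806 bases carried the gene's whole value, and the other transcript, of 1875 bases, was listed at 0 in all 4 libraries. None of the gene's 31-base words (0%) occurred in a transcript of another gene. Whether CAST reads were aligned to a CAST genome is not given in the sources used here, and the part of sequence differences between the strains in this value was not tested.

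The 250 bases before the annotated start of Kcng4 are shown because the difference between the parents was the largest among the members at this gene. The sequence is the RefSeq one of the reference strain (GRCm38.p6, chr8:119635681-119635930, minus strand), written 5′ to 3′, and capitals mark the CG dinucleotides.
Kcng4: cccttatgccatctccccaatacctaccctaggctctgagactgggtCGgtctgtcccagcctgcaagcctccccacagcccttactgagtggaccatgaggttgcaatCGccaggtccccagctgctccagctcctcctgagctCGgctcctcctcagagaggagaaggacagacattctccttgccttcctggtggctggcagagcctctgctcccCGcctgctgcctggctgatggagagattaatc
This window held 4 CG dinucleotides. In windows of 300 bases (250 before and 50 after the start), 31.4% of all 32851 RefSeq mouse promoters held fewer than Kcng4. Promoter windows were matched for 25 of the 40 members, 30 windows in all, with a median of 19.5 CG dinucleotides against 7 over all promoters. The letters TATAAA, searched on both strands, were in 0 of the 30 member windows and in 13.6% of all. These are matches of letters and carry no statement on any factor.

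Values of the genes around Kcng4 are given beside it. Of genes whose span came within 200 kb of its own, 7 others had a mean of at least 1 FPKM. On the log2(FPKM + 1) scale, 0 of the 7 were 2-fold apart between CAST and B6, against 5.09% of all genes compared. With only 7 genes, 0 calls cannot be told apart from that share. Wfdc1, which encodes a secreted whey-acidic-protein-domain protein and lies 30.7 kb from Kcng4, was at 3.24 FPKM for B6, 1.33 for CAST, 1.68 for F1i and 2.43 for F1r. Its difference of CAST minus B6 was -0.86, although on FPKM itself the parents were more than 2-fold apart. The other 6, Necab2, Mbtps1, Hsdl1, Taf1c, Tldc1 and Cotl1, lay between -0.37 and 0.15.

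**Figure D3:**
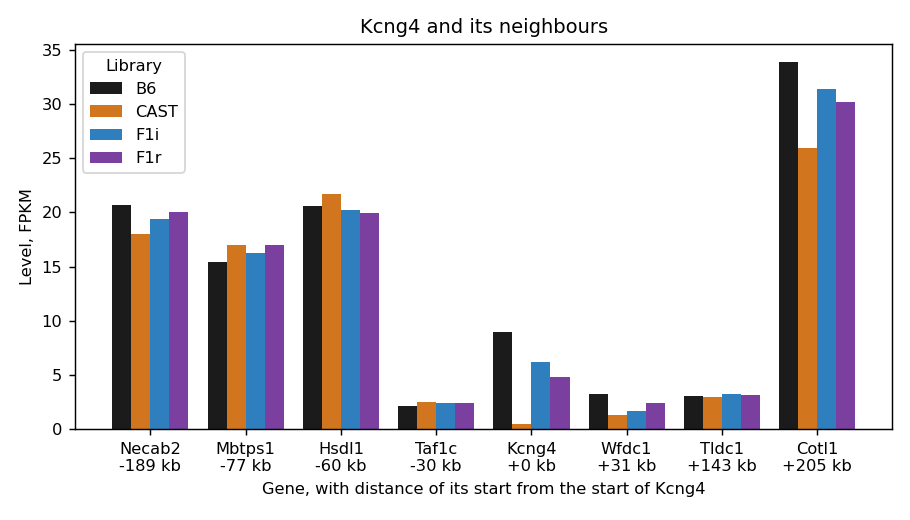
FPKM of Kcng4 and of the 7 genes around it, with 1 bar for each of the B6, CAST, F1i and F1r libraries and the distance from the start of Kcng4 in kb under each name. The CAST bar is far below the others at Kcng4 (0.445 FPKM) and lowest at Wfdc1 (1.33 FPKM).

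Among the other Kv6 genes, Kcng1 was at 2.50 FPKM for B6, 4.61 for CAST, 3.67 for F1i and 4.09 for F1r. CAST was highest and B6 lowest, with a difference of 0.68 that did not reach 2-fold on the log2 scale. Kcng3 was at 1.81, 2.33, 2.59 and 2.86 FPKM in B6, CAST, F1i and F1r, with both hybrids above both parents. Kcng2 was at 2.64, 2.80, 2.01 and 1.94 FPKM, and it was the only one of the 34 compared members with both hybrids below both parents (mean of the hybrids minus mean of the parents, -0.32). Over all 13746 genes compared, 1357 had both hybrids below both parents. With only the Kcng2 transcript of highest mean, the difference was -0.09. The Kv6 genes together made up 3.62% of the members' summed FPKM in B6 and 2.15% in CAST.

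The Kv9 genes encode silent partners of the Kcnb channels. Kcns1 was at 4.45 FPKM for B6, 2.26 for CAST, 3.29 for F1i and 3.58 for F1r. CAST was lowest and B6 highest, 1.97-fold apart on FPKM, a difference of -0.74 on the log2 scale. Kcns3 was at 2.76, 3.98, 3.29 and 2.99 FPKM in B6, CAST, F1i and F1r (0.40 for CAST minus B6), and Kcns2 was at 6.60, 7.54, 7.08 and 8.24 FPKM (0.17). Both lay in the opposite direction to Kcns1, and their differences were smaller.

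Kcnf1, the Kv5 subunit, was at 25.8, 25.6, 25.5 and 29.7 FPKM in B6, CAST, F1i and F1r, the highest level among silent subunits. Kcnv1, a Kv8 subunit, was at 12.4, 13.1, 13.7 and 14.2 FPKM. Kcnv2, a Kv8 subunit known from photoreceptors, was at or below 0.0422 FPKM in all libraries, an estimated 0.939 to 6.70 fragments, too few to compare. The 10 silent subunits held 15.4% of the members' summed FPKM for B6, 13.2% for CAST, 14.4% for F1i and 14.2% for F1r.

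Among their Kcnb partners, the Kv2 channels of the delayed rectifier current in neuron cell bodies, Kcnb2 was at 4.08 FPKM for B6, 4.30 for CAST, 3.95 for F1i and 4.83 for F1r. F1r was highest, and CAST and B6 differed by 0.06.

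The Kv1 genes encode the low-threshold channels of axons. Kcna1, whose loss causes seizures in mice, was at 36.2 FPKM for B6, 35.0 for CAST, 38.2 for F1i and 39.6 for F1r. Kcna2, its axonal partner, was at 28.9, 31.3, 31.7 and 34.1 FPKM, and Kcna6 was at 17.1, 17.3, 18.8 and 18.04. In each of these genes both hybrids were above both parents, and CAST minus B6 lay between -0.05 and 0.11. Kcna4, an A-type subunit, had 12.1 to 16.7 FPKM, Kcna3 had 8.16 to 10.4 and Kcna5 had 2.01 to 2.64. Kcna10 reached no more than 0.0341 FPKM, an estimated 0 to 2.03 fragments, and Kcna7, known from skeletal muscle and heart, was listed at 0 in all 4 libraries.

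Neighbouring Kv1 genes did not share one level. Kcna3, Kcna2 and Kcna10 lie in a row on chromosome 3, with gaps of 63.1 and 68.1 kb, and in B6 they were at 8.16, 28.9 and 0.0250 FPKM. Kcna5, Kcna1 and Kcna6 lie in a row on chromosome 6, with gaps of 105 and 61.9 kb, and in B6 they were at 2.44, 36.2 and 17.1 FPKM. Kcna5 shared the most sequence with other genes of any member, 4.31% of its 31-base words, mainly with Kcna6.

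The Kv3 genes encode the high-threshold channels that let neurons fire fast. Kcnc1 was at 24.2 FPKM for B6, 23.98 for CAST, 24.2 for F1i and 27.6 for F1r. Kcnc2 was at 27.5, 26.1, 27.5 and 29.3 FPKM, and Kcnc4 was at 11.4, 11.2, 13.7 and 13.3. In all 3, CAST was lower in value than B6, by differences between -0.07 and -0.01. This direction depends on the scale: with each library rescaled to one FPKM total, the differences were 0.32 for Kcnc1, 0.26 for Kcnc2 and 0.29 for Kcnc4. That rescaling moved the median of all genes from 0.04 to 0.34. The 3 genes were below this median on both scales, but the rescaling shifts all such genes by nearly the same amount, so this is no separate check. With the leading transcript alone, Kcnc1 was at 0.06, above the median of all genes there (0.02). Kcnc2 was at -0.07 and Kcnc4 at -0.02 in that setting.

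The Kv4 genes encode the A-type channels of dendrites. Kcnd2 was at 23.1 FPKM for B6, 28.3 for CAST, 25.5 for F1i and 28.5 for F1r. Kcnd3 was at 12.9, 14.2, 13.2 and 15.2 FPKM. Kcnd1, which is X-linked, was at 1.16, 1.23, 1.34 and 1.22. All 3 were higher in value in CAST, by 0.28, 0.14 and 0.05. Annotated within Kcnd2 on the same strand are Gm42583, at 1.79 to 4.28 FPKM, and Gm42584, at 0 to 1.70, whose reads cannot be told apart from those of Kcnd2 where they overlap.

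Among the Kv7 genes, Kcnq3, a subunit of the M-type current, was at 13.7 FPKM for B6, 18.1 for CAST, 14.1 for F1i and 17.8 for F1r. CAST and F1r were near each other and above B6 and F1i. Kcnq5, another subunit of that current, was at 9.82, 13.6, 11.4 and 12.3 FPKM, with both hybrids between the parents. The differences of CAST minus B6 were 0.37 for Kcnq3 and 0.43 for Kcnq5, neither of them 2-fold. After median-ratio scaling they were 0.32 and 0.37, and after rescaling to one total 0.70 and 0.75. Rescaling to one total moved the median of all genes from 0.04 to 0.34, so the larger values there add no support. Measured from the median of all genes, Kcnq3 was at 0.34 before and 0.36 after that rescaling, and Kcnq5 at 0.39 and 0.41. With only the leading transcript, Kcnq3 was at 0.19 and Kcnq5 turned to -0.09.

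Kcnq1, the cardiac subunit, was at 0.0458 to 0.0784 FPKM, and the antisense RNA Kcnq1ot1 that overlaps it was at 0.866 to 1.56.

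In bulk tissue, fewer cells of a type and less RNA per cell cannot be told apart. Summed marker lists also differed between the parents. Pan-neuronal markers were at 1757 FPKM in B6 and 1670 in CAST, with 0 of 8 called, and the 7 markers of inhibitory neurons were at 585 and 506, with 0 called. Oligodendrocyte and myelin markers were at 2198 in B6 and 1320 in CAST, with 4 of 9 called lower. Purkinje cell markers were at 488 and 408, with 1 of 6 called lower, and cerebellar granule cell markers at 153 and 172, with 1 of 7 compared called higher. Pvalb is in both the inhibitory and the Purkinje list, so these sums are not separate. Granule cell markers went both ways, as with Gabra6 (20.0 FPKM in B6 and 41.3 in CAST) and Calb2 (53.7 and 38.9). The part of these lists in the Kcng4, Kcns1, Kcnq3 and Kcnq5 values was not tested. Photoreceptor markers summed to at most 0.474 FPKM in any library, and muscle markers were at 8.89 FPKM in B6 against 2.09 to 2.57 in the other libraries.

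The Kcnh genes kept their share of the family, between 13.2% and 13.3% in all 4 libraries, while single genes differed in direction. Kcnh3, an elk channel of the forebrain, was at 15.5 FPKM for B6, 15.9 for CAST, 15.7 for F1i and 17.1 for F1r. Kcnh7, an erg channel, was at 10.97, 12.9, 12.1 and 14.7 FPKM. Kcnh1, an ether-a-go-go channel, was at 9.44, 13.7, 10.9 and 12.9 FPKM, with CAST highest and B6 lowest (0.49). Of the others, Kcnh2, the erg channel of cardiac repolarisation, had its lowest value in CAST (8.27 FPKM against 10.2 to 11.0 elsewhere, -0.36). After rescaling to one total this difference was -0.05, but there the median of all genes was 0.34 in place of 0.04. With the leading transcript alone it was -0.16. Among the rest, Kcnh5 had 9.52 to 10.96 FPKM and Kcnh4 had 1.03 to 1.19. Kcnh6 and Kcnh8 were below 1 FPKM, at 0.413 to 0.634 and 0.263 to 0.361.

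The reciprocal hybrids carry the same pair of parental genomes and differ in the direction of the cross. Between F1r and F1i, 0 of 34 members were 2-fold apart, against 0.495% of all genes. Values ran from -0.33 for Kcng4 to 0.32 for Kcnq3. The median difference was 0.10 over the members and 0.03 over all genes, and 25 of 34 members were above 0, against 58.1% of all genes. F1r was the highest of the 4 libraries for 18 of 34 members, against 21.7% of all genes. Related lists were compared too. F1r was highest for 13 of 24 auxiliary and anchoring genes of these channels, and 20 of the 24 were above 0. For voltage-gated calcium and sodium channel alpha genes these counts were 5 and 11 of 12. They were 5 and 8 of 11 for inward rectifier genes and 2 and 6 of 8 for two-pore genes. For calcium- and sodium-activated potassium channel genes they were 2 and 6 of 6. Of the 8 pan-neuronal markers, 1 was highest in F1r, namely Snap25, at 635 FPKM against 499 to 592 in the other libraries.

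Set against the parents, the mean of the hybrids was 2-fold away from the mean of the parents for 0 of 34 members and for 0.153% of all genes. The median of the hybrids minus the parents was 0.09 over the members and -0.01 over all genes, and 29 of 34 members were above 0, against 47.5% of all genes. Both hybrids were above both parents for 10 of 34 members, against 8.79% of all genes. Among these were Kcna1, Kcna2, Kcna4, Kcna6, Kcnc2, Kcnc4, Kcng3 and Kcnv1. The widest were Kcng3 at 0.28, Kcna4 at 0.24 and Kcnc4 at 0.24. The count was sensitive to scaling: with each library rescaled to one FPKM total it was 1 of 34, against 1.80% of all genes. With the leading transcript alone it was 8 of 33, against 10.7% of all genes. There Kcna4 fell to 0.10, with F1i (10.9 FPKM) below CAST (11.6). Kcnc2 also had F1i (19.5) below B6 (20.0) there. Kcng3 and Kcnc4, each with 1 transcript, were unchanged.

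**Figure D4:**
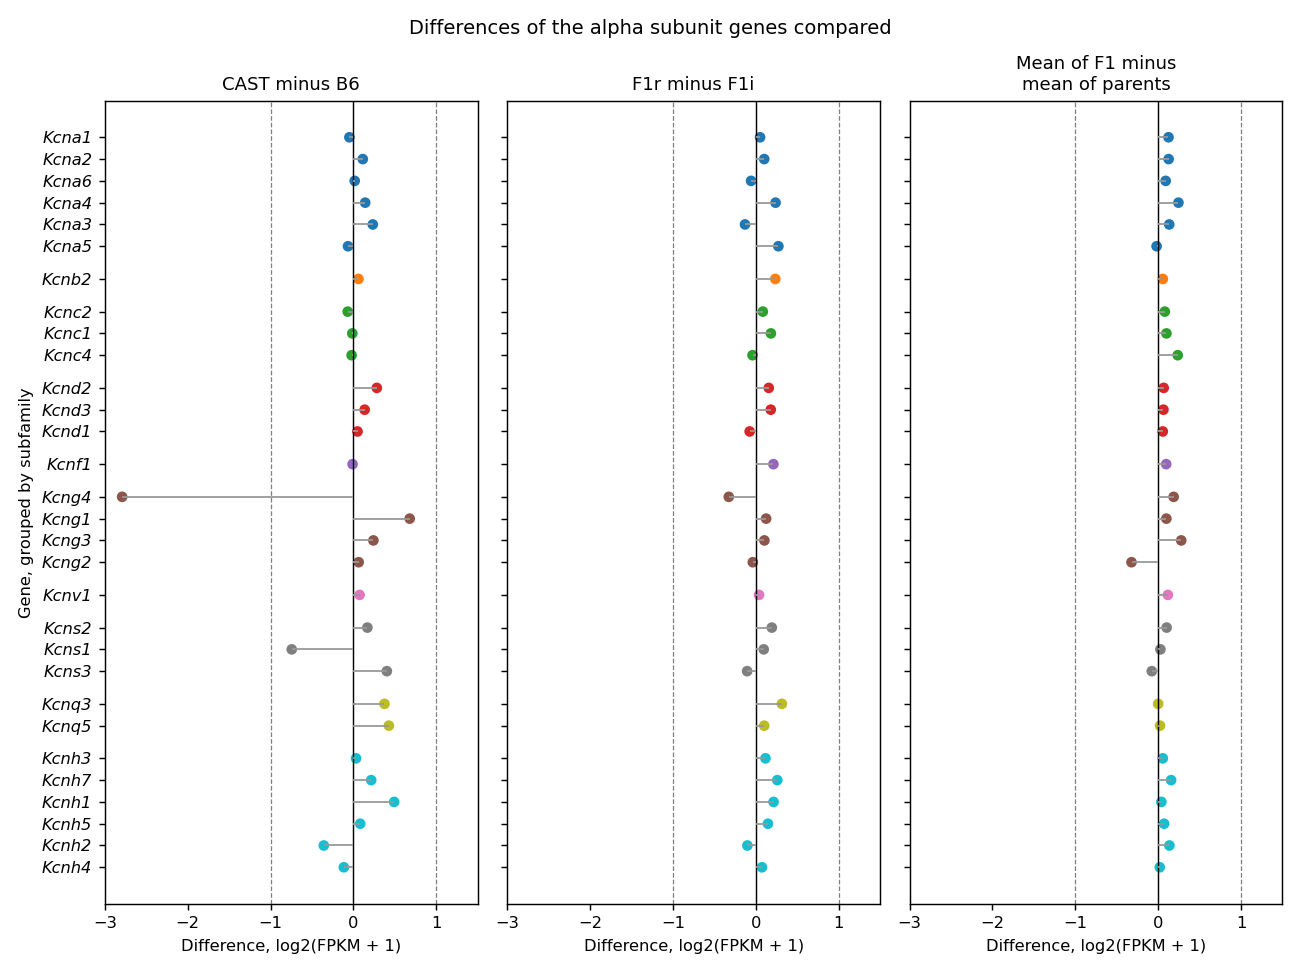
Differences in log2(FPKM + 1) for 30 of the 34 compared members, 1 panel each for CAST minus B6, F1r minus F1i, and the mean of the hybrids minus the mean of the parents, with dashed lines at 2-fold. Only Kcng4 passes a dashed line, at -2.79 for CAST minus B6, and values in the other panels lie between -0.33 and 0.32.

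The make-up of each gene by transcript was compared through the share of its FPKM in the leading transcript, the one with the highest mean. Of the 22 members for which such a share was compared, 3 differed by 25 points or more between any pair of libraries, against 11.2% of all genes, and the median change was 10.9 points over the members and 9.20 over all genes. For Kcng1 the 4089-base transcript held 94.4% for B6, 67.0% for CAST, 72.0% for F1i and 61.7% for F1r. B6 stood apart because a 2316-base transcript was at 0.139 FPKM there and at 0.958 to 1.56 in the other libraries. With the leading transcript alone, the difference of CAST minus B6 for Kcng1 was 0.28 in place of 0.68.

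For Kcnq5 the 6562-base transcript held 84.0% for B6, 56.9% for CAST, 73.9% for F1i and 83.9% for F1r. A 1472-base retained-intron transcript was at 1.67 FPKM in CAST and 0.723 in F1i and was listed at 0 in B6 and F1r. A second gene on the same strand within Kcnq5, Gm7658, was at 2.31 FPKM for B6, 4.21 for CAST, 3.44 for F1i and 2.39 for F1r, and reads of both cannot be told apart where they overlap. For Kcng2 the 2813-base transcript held 81.4%, 73.6%, 94.7% and 100%, as its shorter transcripts were lower in the hybrids. These shorter transcripts, of 279 and 616 bases, were at or below 0.594 FPKM in every library. At such lengths and levels they rest on few fragments, so a difference in the make-up of Kcng2 cannot be read from this share. Just below 25 points were Kcnd1 at 23.0, Kcns3 at 21.7 and Kcnh2 at 21.1.

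**Figure D5:**
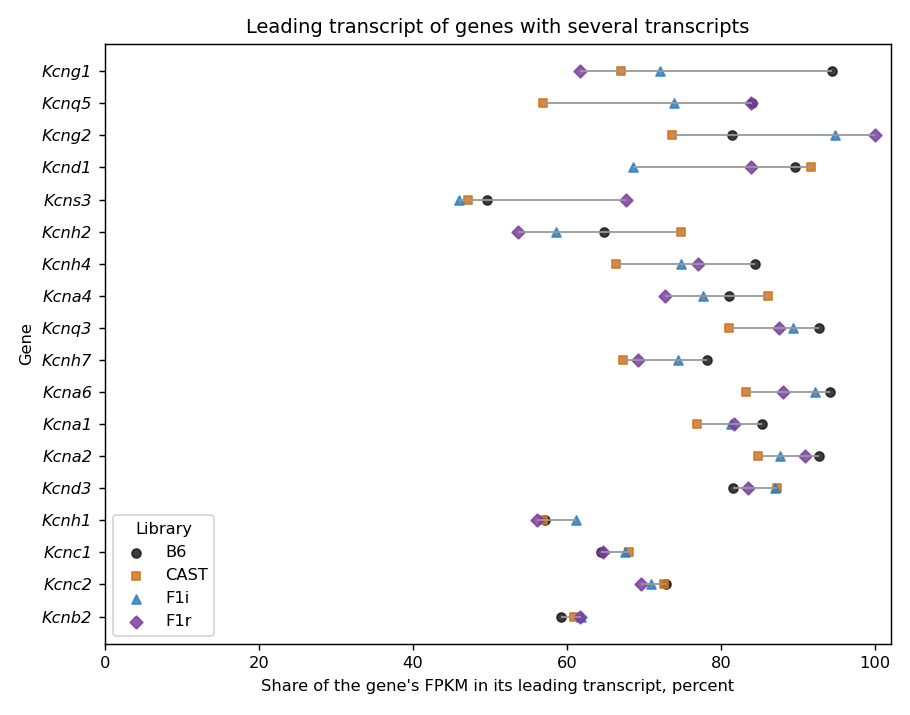
Percent of a gene's FPKM in its leading transcript, 1 line of points per gene with 18 of the 22 genes drawn, 1 point for each of the B6, CAST, F1i and F1r libraries and a grey line over their range. The widest ranges are those of Kcng1, with B6 at 94.4%, Kcnq5, with CAST at 56.9%, and Kcng2, with F1r at 100%.

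By annotated type, protein-coding transcripts held 92.0% of the members' FPKM for B6, 92.3% for CAST, 92.0% for F1i and 92.1% for F1r. Retained-intron transcripts held 1.21%, 2.84%, 1.44% and 1.69%, with CAST highest. For Kcnq3 the 2979-base retained-intron transcript was at 0.999 FPKM for B6, 3.02 for CAST, 1.34 for F1i and 2.22 for F1r. Kcna6 had its highest transcript, at 14.4 to 17.3 FPKM, annotated as subject to nonsense-mediated decay, and a 5836-base coding transcript of it was at 0.00296 FPKM for B6, 2.68 for CAST, 0.670 for F1i and 1.20 for F1r.

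Channel alpha subunits work with auxiliary subunits and with scaffolds that hold them at the axon initial segment, the juxtaparanode or the synapse. Of 27 such gene entries, with Dlg2 entered more than once, 24 were compared and 0 were 2-fold apart in any of the 3 comparisons. Over all genes the shares were 5.09% for CAST minus B6, 0.495% for F1r minus F1i and 0.153% for the hybrids against the parents. Dlg4, the synaptic scaffold PSD-95, was at 79.4 FPKM for B6, 82.3 for CAST, 83.0 for F1i and 85.8 for F1r. Kcnab2, the beta subunit of Kv1 channels, was at 84.6, 75.4, 83.9 and 81.6 FPKM, with CAST lowest. Both stayed well within 2-fold, as did Vapa, which tethers Kcnb channels at contacts with the endoplasmic reticulum (68.4 to 78.1 FPKM).

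Ank3, the ankyrin that anchors Kv7 channels at the axon initial segment, was at 66.5, 70.1, 65.2 and 70.7 FPKM in B6, CAST, F1i and F1r. Adam22, a partner of Kv1 channels at the juxtaparanode, was at 48.8, 62.5, 53.3 and 61.2 FPKM, and Dlg2, another scaffold of the Kv1 complex, was at 51.3, 60.9, 49.8 and 57.4. A further, lower entry of Dlg2 was at 3.25, 4.13, 3.63 and 4.30 FPKM. For these, B6 and F1i were lower in value than CAST and F1r. The median-ratio scaling factors split the libraries the same way, at 0.982 for B6, 0.987 for F1i, 1.025 for CAST and 1.021 for F1r. The part of library scale in these differences was not tested. The widest differences of CAST minus B6 in the list, named after their values were seen, were -0.68 for Kcne2, a single-span auxiliary subunit abundant in choroid plexus (2.75, 1.35, 1.99 and 1.65 FPKM), -0.53 for Kcne1l, listed under an older symbol of another single-span auxiliary subunit (4.46, 2.78, 3.52 and 3.22), and 0.50 for Lgi1, the secreted ligand of Adam22 (24.4, 34.8, 27.4 and 27.9). On FPKM itself, B6 was more than 2-fold above CAST for Kcne2. Choroid plexus markers summed to 641 FPKM in B6 and 391 in CAST, with 1 of 6 called lower, and their part in the Kcne2 value was not tested.

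In other ion channel families, 0 genes were called between CAST and B6, against 5.09% of all genes compared. These lists are short, so 0 calls cannot be told apart from that share. The counts were 0 of 12 compared voltage-gated calcium and sodium channel alpha genes, 0 of 11 inward rectifier genes (Kcnj), 0 of 8 two-pore genes (Kcnk) and 0 of 6 calcium- and sodium-activated potassium channel genes. The median of CAST minus B6 was 0.25 for the calcium and sodium channel genes and 0.07 for the voltage-gated potassium channel alpha subunits.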

How the data were processed

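RNA of left hemispheres pooled over 5 mice made 1 library in each of 4 groups, from a strand-specific kit, per the labels' protocols. The authors deposited FPKM per transcript. The tools named in the submitters' processing notes are HISAT2, Cufflinks 2.2.1, Cuffdiff, Trimmomatic 0.36 and bcl2fastq 2.20, with mm9 as the build. The coordinates, however, are those of GRCm38, since 126 of the 126 member transcripts were found in GENCODE M21 and 122 had the same start and end there. The treatment of multi-mapping reads, and any use of strand in counting, is not given in the sources used here. In all, 6 members overlap a gene with a mean of at least 1 FPKM, 2 on the same strand and 4 on the opposite one.

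FPKM of transcripts of at least 200 bases was summed per gene. Genes with a mean of at least 1 FPKM were compared on log2(FPKM + 1), and genes at least 2-fold apart were counted. The hybrids were compared with the parents on the log2 of mean FPKM. The leading share was compared in those with at least 2 transcripts. The deposited values hold no counts. Depth was estimated from the FPKM of 1 fragment in single-transcript genes of at least 3000 bases, and relative to B6 it came to 0.724 for CAST, 0.819 for F1i and 0.734 for F1r. Fragment numbers are therefore estimates without intervals. Shared sequence was the percent of a gene's 31-base words found in other genes of GENCODE M21.

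The members and lists were chosen with earlier results of these data known. Values in every library are given for members 2-fold apart in any comparison, the 3 highest of each subfamily (all where there are 4 or fewer), and members whose leading share differed by 25 points. Other members are given by range, and any named with values beyond that were named after their values were seen. Some members that this rule names are not reported here. Pathway genes are named when 2-fold apart or among the 6 highest. Alternatives were a pseudocount of 0.1, no filter, a mean of at least 5 FPKM, median-ratio scaling, one FPKM total, all transcripts, the leading transcript alone and positions on the log2 scale. The mean of log2 values and the counts over the hybrids under each scaling were added after the data were seen. Python 3.11.15 with numpy 2.4.6, pandas 2.3.3 and matplotlib 3.10.9 was used, and the steps were tested on simulated data.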

Additional observations from a re-analysis of the deposited data

How the results depend on the processing

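Kcng4 was the only member 2-fold apart between CAST and B6 under each alternative run, and 0 members were called in the other comparisons. With one FPKM total, the members with both hybrids above both parents numbered 1 in place of 10. That rescaling moved the all-gene median to 0.34 for CAST minus B6 and 0.27 for F1r minus F1i; there, CAST minus B6 was -0.49 for Kcns1, 0.67 for Kcns3, 0.81 for Kcnh1 and 0.61 for Kcnd2. On the log2 scale the Kcng4 positions were 0.166 for F1i and 0.283 for F1r in place of 0.322 and 0.493. With leading transcripts alone, the widest range of a subfamily's share was 2.25 points in place of 4.26. Of 715 single-member values under the alternatives, 29 moved by more than 0.27, of which 24 were under one FPKM total. The sign turned in 40, all of them differences under 2-fold: 19 under one FPKM total, 15 with leading transcripts alone, 5 under median-ratio scaling and 1 with the mean of log2 values. The cause of these changes was not tested. No paired analysis was possible because each group is 1 library, and no replicate could be left out. Kcna10 and Kcnv2 rest on fewer than 10 estimated fragments in any library.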
